A study of Rattus norvegicus with 170 samples.

Results

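The genes described here are 10 members of the BCL2 family, the proteins that decide at the outer mitochondrial membrane whether a cell lives or dies. They were picked by symbol from a table of single islet cells, and all 10 of 10 were among its 24113 gene symbols, on 15 transcript rows that were added up per symbol. The guardians BCL2, BCL-xL (*Bcl2l1*) and MCL1 hold the pore-forming effectors BAX and BAK (*Bak1*) in check, and the BH3-only proteins BAD, BID, BIM (*Bcl2l11*), PUMA (*Bbc3*) and NOXA (*Pmaip1*) relay stress by binding guardians or effectors. In β-cells the balance among these proteins sets the threshold for death under cytokines, endoplasmic reticulum stress and high glucose. MCL1 is a short-lived protein, and much of the family is controlled after transcription, which RNA reads do not show.

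Islets from wild type, 8 week old male Sprague Dawley rats were cultured for 48 h at 5.5 mM glucose with 0.1% DMSO, the vehicle, or with 3 μM GNF4877, an aminopyrazine that inhibits the kinases DYRK1A and GSK3β and drives β-cells into division. The islets were then dispersed and captured as single cells by microfluidics, giving 86 DMSO and 84 GNF4877 cells. The labels give no animal, culture or chip number for a cell. Each treatment therefore counts as 1 sample without replicates, no p-value is given, and treatment, chip and sequencing lane cannot be told apart. The cells held 241604 to 2499138 mapped reads, and values are RPM, a transcript's read number relative to what its cell had mapped.

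Cells with 1000 RPM or more of *Ins1* are called Ins1-high, and there were 78 in DMSO and 59 in GNF4877. Of the 59, 11 held 10 RPM or more of *Ccnb1*, the gene of the mitotic cyclin B1, and 48 held less. Cells with 1000 RPM or more of *Gcg* and less than 1000 RPM of *Ins1* are called alpha cells, 5 in DMSO and 18 in GNF4877, and 10 cells fell in no group. Other β-cell markers were present in the Ins1-high cells. *Ins2* was read in all 78 and all 59 of them, at means of 20047 and 10320 RPM. It was also read in all 5 and all 18 alpha cells, at means of 93.8 and 12.1 RPM. *Pdx1* was read in 67 and 40 Ins1-high cells, against 1 of 5 and 0 of 18 alpha cells. The beta list, led by *Ins1*, summed to 66337 RPM in DMSO and 47042 RPM in GNF4877, while the means of *Iapp* (1578 and 4539 RPM) and *Slc2a2* (1595 and 3042 RPM) lay the other way. *Mafa*, a β-cell transcription factor, was read in 5 of the 78 DMSO cells and in 0 of the 59 GNF4877 cells. The alpha list summed to 45963 RPM in Ins1-high DMSO cells, of which *Gcg* made 44059, and to 3270 RPM in Ins1-high GNF4877 cells, and all 8 of its 8 genes had a read in the former and 6 of 8 in the latter, where *Irx2* and *Pou3f4* stood at 0. A second hormone at 1000 RPM or more marked 25 of the 78 and 4 of the 59 cells. Mesenchymal markers differed too, with all 7 of 7 read in both treatments, a sum of 326 RPM in DMSO, where *Col1a1* was the most abundant at 83.7 RPM, and a sum of 0.604 RPM in GNF4877. A single DMSO cell, number 46, gave much of this, and without it the DMSO sum was 143 RPM and the mean of *Col1a1* 39.7 RPM. The immune list summed to 11.7 and 66.8 RPM, the duct list to 346 and 879 RPM, the PP list to 2516 and 747 RPM, the delta list to 106 and 282 RPM, the endothelial list to 12.6 and 3.93 RPM and the acinar list to 2.35 and 0.331 RPM. Without the cells with a second hormone, which left 53 and 55 cells, *Bid* and *Bbc3* were the members past 2-fold between treatments (log2 ratios 1.26 and −2.07), as with all cells, and without DMSO cell 46 their ratios were 1.68 and −1.72. The part of the other marker lists was not tested. Genes with a read numbered 8938 in the median Ins1-high DMSO cell and 7031 in the median Ins1-high GNF4877 cell, and with 100000 listed reads drawn from each cell the medians were 6602 and 4898.

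The first comparison asks how the family differed between treated and vehicle Ins1-high cells. The guardians and *Bax* had lower mean RPM in treated cells, none of them by 2-fold. *Mcl1* turned to a log2 ratio of 0.22 when cells with a second hormone were left out. As the difference of mean log2 values per cell, *Bcl2l1* stood at −1.24, past 2-fold, while the median of all genes moved from −0.09 to −0.49. Among ratios of means, the largest differences were in BH3-only genes. By mean log2 values the largest was that of *Bcl2l1*, with *Bbc3* at −0.46 and *Bid* at 0.18. *Bbc3*, which encodes the stress responsive PUMA, was lower, and *Bid*, whose product links death receptors to mitochondria, was higher. Without 1 cell, *Bid* was no longer past 2-fold (0.52), and *Bbc3* still was (−1.25) but lost its call because its mean came under the filter. Of the 8 members with a mean of 1 RPM or more over both groups, 1 was higher by 2-fold or more, against 10.1% of the 13368 genes that passed the same filter, and 1 was lower, against 17.2%. The median log2 ratio was −0.39 over the 8 members and −0.09 over all genes. Ratios are log2((mean RPM + 1)/(mean RPM + 1)), which understates differences of low genes.

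*Bcl2l1* in Ins1-high DMSO cells ranged from 0 to 300.4 RPM with a median of 23.4 and a mean of 57.6 RPM, and in GNF4877 cells from 0 to 247 RPM with a median of 1.01 and a mean of 36.3 RPM. The log2 ratio was −0.65. It was read in 66 of 78 DMSO cells, or 84.6% of them (74.7 to 91.8%, the 95% interval by the exact method of Clopper and Pearson, which covers counting error only), and in 31 of 59 GNF4877 cells, or 52.5% (39.1 to 65.7%). These 2 intervals do not overlap, as for 1 of the 8 members that passed the filter in the direction of a lower share and 0 in the other, while among all genes that passed it 21.8% had a lower and 0.823% a higher share beyond their intervals. After thinning, the *Bcl2l1* shares were 65.8% (54 to 76.3%) and 43.1% (30.2 to 56.8%), the intervals of no member were apart, and the background was 18.8% lower and 0.621% higher. Counting only cells at 10 RPM or more gave 57.7% and 45.8%, so the gap lay largely in DMSO cells with a few reads.

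*Mcl1* ranged from 0 to 196 RPM in DMSO (median 4.55, mean 22.4 RPM) and from 0 to 141 RPM in GNF4877 (median 0.882, mean 18.1 RPM). It was read in 67.9% (56.4 to 78.1%) and 57.6% (44.1 to 70.4%) of the cells, and the log2 ratio was −0.30. *Bcl2*, the founding guardian, was read in nearly every cell but at a handful of reads. It lay between 0 and 14.3 RPM in DMSO (median 4.53 RPM, or 6 reads) and between 0 and 18.1 RPM in GNF4877 (median 2.07 RPM, or 3 reads), in 77 of 78 and 52 of 59 cells, with a log2 ratio of −0.59. The ranges of all 3 guardians overlapped throughout.

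Among the effectors, *Bax* had a mean of 38.3 RPM in DMSO and 27.3 RPM in GNF4877 (medians 28.5 and 21.4 RPM), a log2 ratio of −0.48, and was read in 91% (82.4 to 96.3%) and 74.6% (61.6 to 85%) of the cells. *Bak1* was read in 24 of 78 and 23 of 59 cells at means of 3.56 and 3.46 RPM, a log2 ratio of −0.03, which became 0.18 without the highest DMSO cell.

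Of the BH3-only genes, *Bad*, whose product is held inactive by growth factor signalling, was read in 55 of 78 and 40 of 59 cells, with means of 21.2 and 30.6 RPM and a log2 ratio of 0.51. Its medians lay the other way, at 10.4 and 5.92 RPM, and the difference of mean log2 values was −0.02, so no direction is given for *Bad*. *Bbc3* was read in 17 of 78 DMSO cells (21.8%, 13.2 to 32.6%) and in 3 of 59 GNF4877 cells (5.08%, 1.06 to 14.1%), the latter with 2 reads each. Its means were 2.53 and 0.0830 RPM, a log2 ratio of −1.71, whose size depends on the scale (−3.85 with a pseudocount of 0.1 RPM, −0.31 with 10 RPM, and −2.86 when rescaled to listed reads). A single DMSO cell with 75.8 RPM gave 38.3% of the DMSO sum, and that cell is one of 4 Ins1-high cells in which listed transcripts took less than 20% of the mapped reads. Without that cell the ratio was −1.25 but the mean over both groups was 0.833 RPM, under the filter, so that 0 members were lower, and the same held without all 4 such cells (−1.28).

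*Bid* was read in 9 of 78 DMSO cells and in 7 of 59 GNF4877 cells, shares of 11.5% and 11.9%. Its means were 2.56 and 9.47 RPM, a log2 ratio of 1.56. With a pseudocount of 10 RPM the ratio was 0.63, and the difference of mean log2 values was 0.18, neither past 2-fold. The share of cells with *Bid* was therefore alike, and 1 cell carried the mean in each treatment. A treated cell at 320.1 RPM held 57.3% of the treated sum, and without it the ratio was 0.52 and 0 members were higher. A DMSO cell at 141 RPM held 70.5% of the DMSO sum, and without it the ratio was 2.57. *Bcl2l11* was read in 3 DMSO cells, at 15.5, 2.60 and 1.34 RPM, and in 0 of 59 GNF4877 cells. With 3 cells taken as the limit of a count of 0, that allows a share of up to 5.08% (6.06% by the exact interval) of such cells with a read, and sets no limit on cells that express the gene. *Pmaip1* had no read in any of the 170 cells, which by the same rule allows a share of up to 3.85% in Ins1-high DMSO cells (4.62% by the exact interval) and the shares just given in Ins1-high GNF4877 cells.

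**Figure D1:**
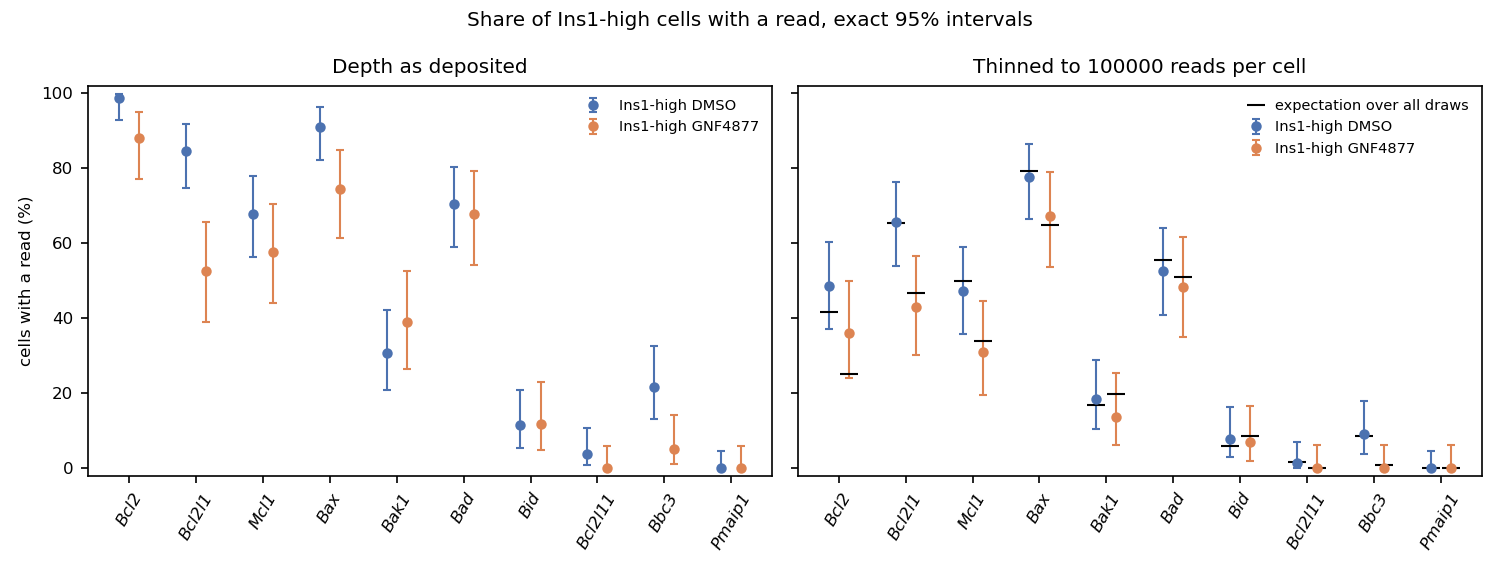
Share of Ins1-high cells with a read of each gene (y axis, percent) in DMSO (78 cells) and GNF4877 (59 cells), as deposited and in 1 random draw of 100000 reads per cell; points are shares, bars exact 95% intervals, black ticks the expectation over all draws. *Bcl2l1* is read in 84.6% and 52.5% of the cells as deposited, and *Pmaip1* in 0%.

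*Mcl1* and *Bcl2l1* were also counted together in each cell, since either guardian can hold effectors in check. In DMSO, 47 of 78 Ins1-high cells held reads of both *Mcl1* and *Bcl2l1* and 6 of 78 held neither (7.69%, 2.88 to 16%). In GNF4877, 19 of 59 held both and 13 of 59 neither (22%, 12.3 to 34.7%). In the thinned draw, neither was read in 8 of 76 DMSO cells (10.5%, 4.66 to 19.7%) and in 25 of 58 GNF4877 cells (43.1%, 30.2 to 56.8%). The draw set the groups further apart than the exact expectation over all draws, which was 14.6% and 36.9%. A pair of genes has no background share of its own here, and lower shares were common among all genes, as given above.

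The other family genes and the pathway around them differed in both directions. Of the 14 other BCL2 family genes that were listed, 10 passed the filter, with 2 higher and 2 lower, where 10.1% of all genes were higher and 17.2% lower. *Bcl2l2*, the gene of the guardian BCL-w, had means of 9.04 RPM in treated and 30.8 RPM in vehicle cells (log2 ratio −1.67), and was read in 22 of 59 and 52 of 78 cells. *Hrk*, a BH3-only gene, was read in 2 of 59 and 22 of 78 cells (log2 ratio −2.63). The higher values of *Bik*, read in 2 treated cells, and *Bcl2l14* came from single cells, which gave 93% and 99.6% of the treated sums and without which both were under the filter, *Bik* at a log2 ratio of 0.25 and *Bcl2l14* turned to −1.42.

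Of 16 genes of the apoptosome, caspases and their inhibitors, 5 were higher and 0 lower, beside the same 10.1% and 17.2% of all genes. *Casp6*, an executioner caspase, was read in 22 of 59 treated and 8 of 78 vehicle cells (log2 ratio 2.22), and *Endog*, a mitochondrial nuclease, had a log2 ratio of 1.49. Without the highest DMSO cell, *Casp6* stood at 2.96, and without the highest treated cell at 1.66. *Casp8*, the initiator caspase of death receptors, had a log2 ratio of 1.74 from 2 treated cells, and 0.66 without the higher of them. Of 8 death receptor genes, 3 were higher and 0 lower. *Traf2*, an adaptor of TNF receptors, had means of 44 and 7.62 RPM (log2 ratio 2.39), read in 21 of 59 and 20 of 78 cells. *Fas*, a death receptor, was read in 12 cells of each treatment, with means of 13.8 and 3.25 RPM, and *Tnfrsf10b* in 1 treated cell. None of the 11 genes of the mitochondrial pore and BCL2 partners passed 2-fold.

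Of 15 genes listed as BH3-only regulators, not all of which act on BH3-only genes, 1 was higher and 6 were lower. Over all genes too, lower values (17.2%) outnumbered higher ones (10.1%). *Trib3*, a stress gene downstream of CHOP, was read in 24 of 59 treated and 72 of 78 vehicle cells, with means of 42.6 and 154 RPM (log2 ratio −1.83). *Cdkn1a*, the gene of the cell cycle inhibitor p21, was read in 7 of 59 and 28 of 78 cells (log2 ratio −2.12). *Foxo3*, a transcription factor that activates *Bbc3* and *Bcl2l11*, was read in 1 of 59 and 15 of 78 cells (log2 ratio −1.64). Without the highest DMSO cell *Cdkn1a* stood at −1.53 and *Foxo3* at −1.17. Without the highest treated cell *Cdkn1a* stood at −2.56 and *Foxo3* at −2.75, and both stayed lower. *Akt2*, a kinase of the insulin pathway, was the gene past 2-fold in the other direction (log2 ratio 1.08), with 40.9% of the treated sum in 1 cell and a log2 ratio of 0.38 without it.

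The second comparison set the 11 treated Ins1-high cells with 10 RPM or more of *Ccnb1* against the 48 others. Here 2 guardians and 1 effector were lower in the *Ccnb1* cells. *Mcl1* had a highest value of 9.29 RPM in these 11 cells against 141 RPM in the 48 others, and a larger group can reach a higher maximum. *Bax*, *Bcl2* and *Bad* did not pass 2-fold in either direction. Of 7 members that passed the filter, 0 were higher by 2-fold or more, against 17% of 12540 genes, and 3 were lower, against 24%. The median log2 ratio was −0.12 over these members and −0.09 over all genes.

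The 11 *Ccnb1* cells held 0 to 9.29 RPM of *Mcl1* (median 0, mean 2.19 RPM), and the 48 others held 0 to 141 RPM (median 1.07, mean 21.7 RPM), a log2 ratio of −2.83, which was −1.38 with a pseudocount of 10 RPM, −1.33 as the difference of mean log2 values, and −2.66 without the highest of the 48 cells. *Mcl1* was read in 5 of 11 cells, with 40 reads in all, and in 29 of 48, so the shares overlapped (45.5%, 16.7 to 76.6%, and 60.4%, 45.3 to 74.2%). None of the 11 cells reached 10 RPM, as 31.2% of the others did. A count of 0 among 11 allows a share of up to 27.3% (28.5% by the exact interval), which is close to that. *Bcl2l1* was read in 3 of the 11 cells, at 15.8, 22.3 and 111 RPM, and in 28 of 48 others, which ranged from 0 to 247 RPM. The means were 13.5 and 41.6 RPM, a log2 ratio of −1.55, and 1 cell held 74.4% of the sum of the 11, without which the ratio was −3.15. *Bak1* was read in 5 of 11 and 18 of 48 cells. It held 0 to 4.22 RPM in the 11 cells, 14 reads in all, and 0 to 26.3 RPM in the others, with means of 0.886 and 4.05 RPM and a log2 ratio of −1.42. The *Bak1* call ended with a pseudocount of 10 RPM (−0.37) and with the mean of log2 values (−0.53). In 4 of the 11 cells neither *Mcl1* nor *Bcl2l1* was read (36.4%, 10.9 to 69.2%), against 9 of 48 (18.8%, 8.95 to 32.6%). A few cells therefore carry each of these values, and all the groups overlap at 0.

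The threshold for *Ccnb1* mattered. Besides the 11 cells, 8 treated Ins1-high cells had a *Ccnb1* read below 10 RPM, and in these *Bcl2l1* reached 247 RPM with a mean of 90.3 RPM, against 31.8 RPM in the 40 cells without a *Ccnb1* read. With any *Ccnb1* read as the criterion, 1 member was lower, *Mcl1*, at a log2 ratio of −1.21, while *Bak1* stood at −0.57 and *Bcl2l1* turned to 0.51.

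The remaining members did not pass 2-fold. *Bax* had means of 25.5 and 27.7 RPM (log2 ratio −0.12, and 0.06 without the highest of the 48) and was read in 9 of 11 and 35 of 48 cells. *Bad* was read in 9 of 11 and 31 of 48 cells, with medians of 38.2 and 4.90 RPM and means of 39.5 and 28.5 RPM (log2 ratio 0.46), and the difference of mean log2 values was 1.18. *Bcl2* was read in 10 of the 11 cells (log2 ratio 0.13, and −0.48 without the highest cell). *Bid* was read in 1 of the 11, at 148 RPM (log2 ratio 0.60), and without that cell the ratio was −3.26, while without the highest of the other cells it was 2.31. The beta list summed to 80270 RPM in the 11 cells and 39427 RPM in the 48, led by *Ins1* in both. The alpha list summed to 7972 and 2192 RPM, of which *Gcg* made 3434 and 97.5, with *Gcg* medians of 70.0 and 74.1 RPM. The PP list summed to 7.51 and 917 RPM, the delta list to 14 and 343 RPM and the duct list to 449 and 978 RPM. In the 48 cells *Ppy* had a mean of 916 and a median of 2.98 RPM, and *Sst* 338 and 1.70 RPM. Few cells therefore carry the mean of *Gcg* in the 11 cells and those of *Ppy* and *Sst* in the 48. Without cells with a second hormone, *Mcl1*, *Bcl2l1* and *Bak1* stood at −2.63, −1.63 and −1.61, and the part of the other lists was not tested. *Bbc3* and *Bcl2l11* had no read in the 11 cells, which allows a share of up to 27.3% (28.5% by the exact interval). Only 1 of the 78 DMSO cells reached 10 RPM of *Ccnb1*, so no like comparison exists in vehicle. That cell held 22 RPM of *Mcl1*, 3.53 RPM of *Bcl2l1* and 87.3 RPM of *Bad*, and also 3470 RPM of the mesenchymal marker *Col1a1*.

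**Figure D2:**
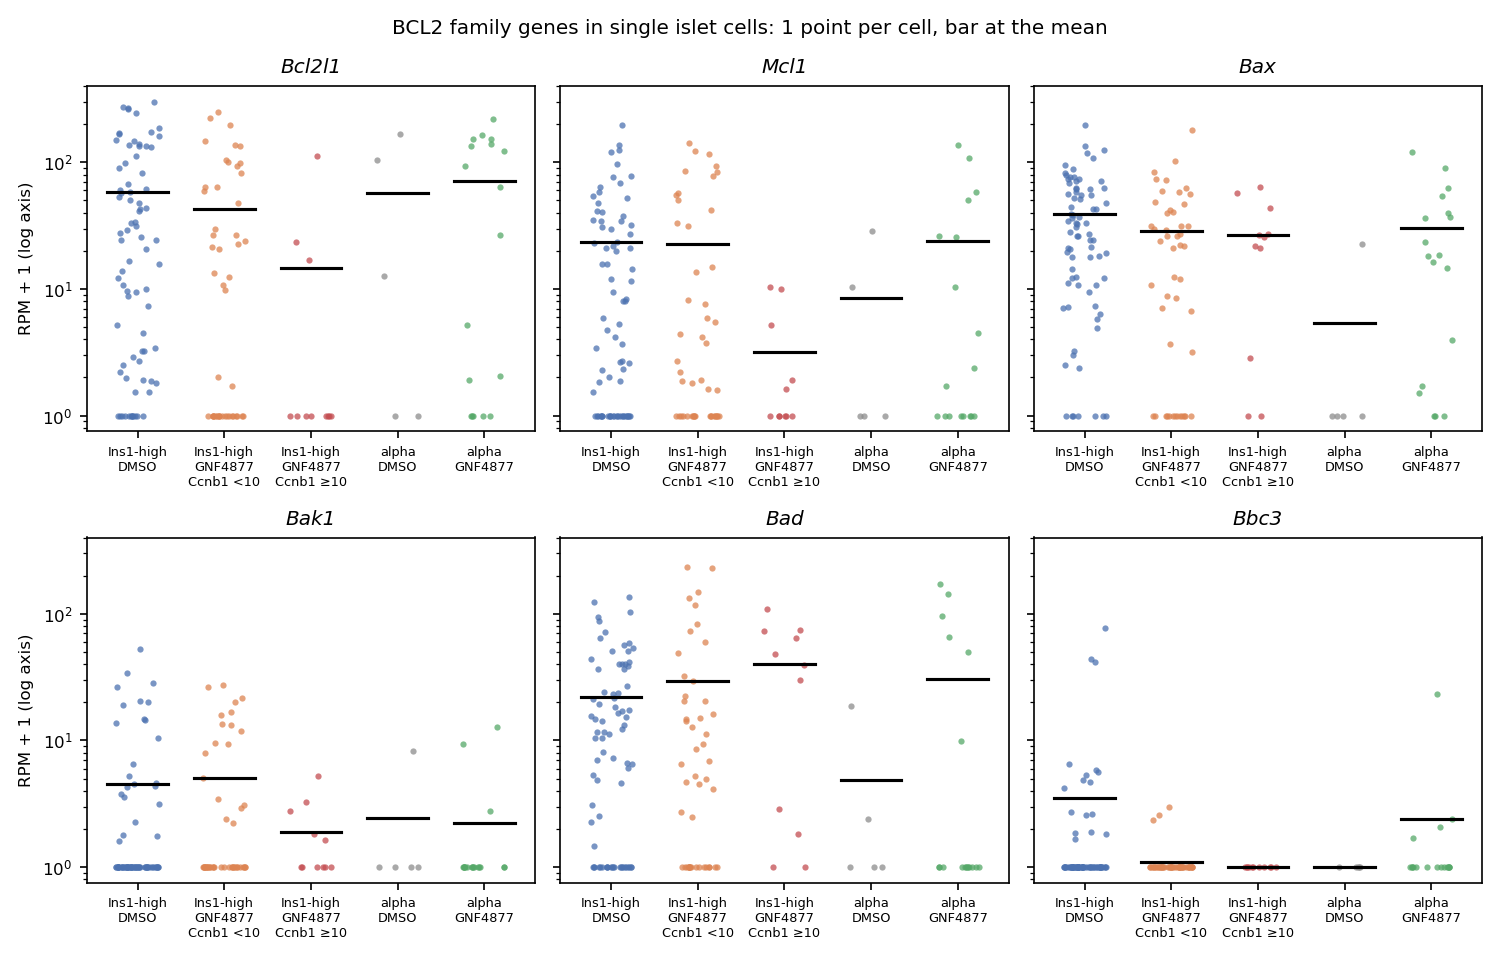
RPM + 1 on a log axis for 6 genes, with 1 point per cell in 5 groups (78, 48, 11, 5 and 18 cells, left to right) and a bar at the mean RPM + 1; cells without a read sit at 1. *Mcl1* in the 11 *Ccnb1* cells does not exceed 9.29 RPM, against 141 RPM in the 48 other treated cells.

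Around the family, 6 of 16 genes of the apoptosome, caspases and their inhibitors were lower in the *Ccnb1* cells and 2 were higher, where 24% of all genes were lower and 17% higher. *Casp9*, the caspase that the apoptosome activates, had means of 0.188 and 20.6 RPM (log2 ratio −4.18). It was read in 3 of 11 and 12 of 48 cells, so the shares were alike and the means differed. A single cell held 35.3% of the sum of the 48, and without it the ratio was −3.62. *Birc3*, an inhibitor of apoptosis, had means of 1.60 and 52 RPM (log2 ratio −4.35). *Htra2*, a mitochondrial protease, had a log2 ratio of −3.41. *Casp2* and *Xiap* were higher (log2 ratios 2.46 and 1.99), with 64.3% and 82% of their sums in 1 cell, without which the log2 ratios were 1.15 and −0.11, while without the highest of the other cells they were 3.33 and 2.69. Of 8 death receptor genes 3 were lower, with *Fas* at −4.06, *Tnfrsf10b* at −2.33 and *Traf2* at −1.01 on the log2 scale, *Tnfrsf10b* from 1 cell and *Traf2* at −0.74 without 1 of the other cells and at −1.65 without 1 *Ccnb1* cell. Of the other BCL2 family genes 3 of 9 were higher, *Bik* (log2 ratio 3.92), *Bcl2l12* (1.91) and *Bok* (1.48), with 93%, 68.9% and 100% of their sums in 1 cell, without which none of the 3 was past 2-fold and the filter. The 2 that were lower were *Bcl2l14* (−2.93), which had 99.7% of the sum of the other cells in 1 cell and a ratio of 0.05 without it, and *Bcl2l13* (−2.80). Of 13 genes listed as BH3-only regulators 5 were lower and 0 higher. *Mdm2*, the gene of a ubiquitin ligase, had means of 46.6 and 211 RPM (log2 ratio −2.16), *Ddit3*, which encodes CHOP, 185 and 662 RPM (−1.83), and *Trib3* 7.97 and 50.6 RPM (−2.52), read in 1 of the 11 cells. Without the highest *Ccnb1* cell these stood at −2.88, −2.43 and −5.69 and *Birc3* at −5.10, and *Htra2* stood at −2.76 without the highest other cell, so the sizes of these ratios rest on single cells while the calls stayed. None of the 11 pore and partner genes passed 2-fold.

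The third comparison placed the 18 treated alpha cells beside the 59 treated Ins1-high cells. Most members had similar means in both cell types. *Bcl2l1* was somewhat higher in alpha cells, *Bak1* was lower and *Bid* was higher, and the calls of *Bak1* and *Bid* each ended without 1 cell. The mesenchymal list summed to 201 and 0.604 RPM and the PP list to 1313 and 747 RPM in alpha and Ins1-high cells. None of the 7 mesenchymal genes was read in more than 2 of the 18 alpha cells, and *Ppy* had a mean of 1267 RPM but a median of 5.36 RPM there, so few cells carry these sums. Other lists lay the other way, with 11.1 and 66.8 RPM for immune, 449 and 879 RPM for duct and 167 and 282 RPM for delta markers. The cells held reads of a median of 5865 and 7031 genes. Leaving out the Ins1-high cells with a second hormone left *Bid* and *Bak1* past 2-fold (1.12 and −1.08), and the part of the markers in the alpha cells and of the genes read was not tested. Of 7 members tested, 1 was higher by 2-fold or more, against 13.7% of 12822 genes, and 1 was lower, against 33.6%. The median log2 ratio was 0.11 over these members and −0.42 over all genes.

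*Bcl2l1* ranged from 0 to 219.7 RPM in treated alpha cells (median 44.5, mean 70.7 RPM), with a read in 13 of 18 cells. Its log2 ratio was 0.94, which became 1.09 without the highest Ins1-high cell and 0.75 without the highest alpha cell. *Mcl1* had a mean of 23.1 RPM and a read in 10 of 18 cells (log2 ratio 0.34), and *Bcl2* a mean of 3.31 RPM and a read in all 18 (log2 ratio 0.11). *Bax* was read in 15 of 18 cells at a mean of 29.1 RPM (log2 ratio 0.09). *Bak1* was read in 3 of 18 cells at a mean of 1.22 RPM (log2 ratio −1.01), a call that ended without the highest Ins1-high cell (−0.88). *Bad* was read in 6 of 18 cells (33.3%, 13.3 to 59%), against 67.8% (54.4 to 79.4%) of the Ins1-high cells, yet its mean was 29.7 RPM (log2 ratio −0.04). The intervals overlap, and among cells with a read the median of *Bad* was 80.6 RPM in 6 alpha cells and 19.5 RPM in 40 Ins1-high cells. *Bid* was read in 3 of 18 cells, at up to 275 RPM (mean 23.2 RPM, log2 ratio 1.21), and without the highest cell the ratio was −0.16. *Bbc3* was read in 4 of 18 cells at a mean of 1.40 RPM and was under the filter. Without the 1 cell that moves it most, *Bcl2* stood at −0.02, *Mcl1* at −0.13 and *Bax* at −0.19, so the signs of these small log2 ratios rest on single cells.

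The 5 DMSO alpha cells are too few for a comparison. Their *Bcl2* values were 5.23, 3.13, 3.12, 11.8 and 5.56 RPM, and their *Bcl2l1* values 104, 11.7, 165, 0 and 0 RPM. *Mcl1* was 27.9 and 9.39 RPM in the first 2 of these cells and 0 in the other 3. *Bax* was read in 1 of them (21.8 RPM), *Bak1* in 1 (7.28 RPM), *Bad* in 2 (17.8 and 1.39 RPM), and *Bid*, *Bcl2l11*, *Bbc3* and *Pmaip1* in none, which allows a share of up to 60% (52.2% by the exact interval). *Bax* was thus read in 20% (0.505 to 71.6%) of DMSO alpha cells and 83.3% (58.6 to 96.4%) of treated alpha cells, intervals that overlap.

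**Figure D3:**
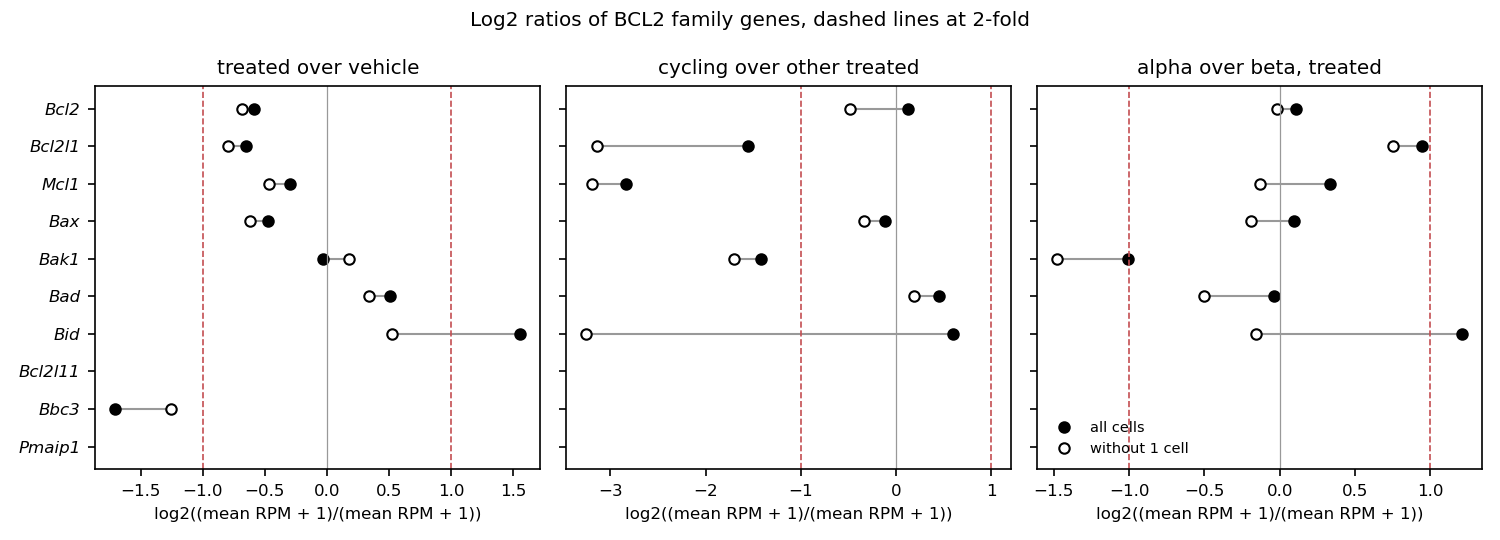
Log2((mean RPM + 1)/(mean RPM + 1)) on the x axis for each gene that passed the filter, in the 3 comparisons; filled points use all cells, open points leave out the 1 cell that moves that gene most, and dashed lines mark 2-fold. *Bid* moves from 1.56 to 0.52 between treated and vehicle cells, and *Mcl1* from −2.83 to −3.20 between *Ccnb1* and other treated cells.

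In each list around the family more genes were lower than higher in treated alpha cells, where 33.6% of all genes were lower. RPM is relative to a cell's mapped reads, and *Gcg* alone had a mean of 284382 RPM in treated alpha cells. *Ins1* had a mean of 29019 RPM in treated Ins1-high cells, and the median log2 ratio of all genes was −0.42. The part of this scale in the lower values was not tested. Of 11 pore and partner genes 6 were lower and 0 higher, among them *Bag1* (log2 ratio −2.44), *Bcl10* (−2.07) and *Tmbim6*, the gene of BAX inhibitor 1, with means of 554 and 1935 RPM (−1.80). Of 16 apoptosome genes 7 were lower, among them *Casp6* (−2.59) and *Casp8* (−2.30, from 2 Ins1-high cells), and *Birc3* was higher (2.52, and 1.25 without 1 cell). Of 7 death receptor genes 4 were lower, led by *Ripk1* (−3.01), *Tnfrsf10b* (−2.10, from 1 cell) and *Tnfrsf1a* (−1.37). Of 13 genes listed as BH3-only regulators 5 were lower, among them *Mapk9* (−3.36) and *Gsk3a* (−1.31, and −0.88 without 1 cell). Of 11 other family genes 6 were lower, led by *Bcl2l14* (−2.75) and *Bik* (−1.86), read in 3 and 2 Ins1-high cells, and the mitophagy gene *Bnip3* (426 and 1525 RPM, −1.84), and 3 were higher, *Bok* (3.07), *Bcl2a1* (1.81) and *Hrk* (1.57), read in 2, 1 and 1 of the 18 cells. Without the highest cell *Casp8*, *Tnfrsf10b*, *Bcl2l14*, *Bik*, *Bok*, *Bcl2a1* and *Hrk* were each no longer past both 2-fold and the filter. Without the highest alpha cell *Bag1* stood at −3.44, *Bcl10* at −3.79, *Mapk9* at −4.82, *Casp6* at −3.64 and *Ripk1* at −3.97, and *Ripk1* at −2.32 without the highest Ins1-high cell, so these calls stayed but their sizes rest on single cells.

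How the members vary together across cells was described by rank correlation. Among the 6 members read in enough cells, the 15 pairwise Spearman's rho of RPM ran from −0.19 to 0.29 (median 0.11) over 78 Ins1-high DMSO cells and from −0.13 to 0.27 (median 0.04) over 59 Ins1-high GNF4877 cells. The highest was between *Bcl2l1* and *Bax* in DMSO, and the same pair stood at −0.11 in GNF4877. The cells of a treatment are 1 sample and differ in depth, and such weak values in sparse reads are no finding.

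*Bcl2* was the member read in most Ins1-high cells, 129 of 137. Of 8465 other genes read in 50% or more of the DMSO cells, those with the most similar values were *Psmb11* (rho 0.66 over 78 DMSO cells, 0.77 over 59 GNF4877 cells), *Hmox2-ps1* (0.66 and 0.68), *Iglon5* (0.64 and 0.58), *LOC100909405* (0.64 and 0.74) and *Olig2* (0.63 and 0.62). *Psmb11* encodes a proteasome subunit of the thymic cortex, *Olig2* a transcription factor of oligodendrocytes, *Iglon5* a neuronal adhesion protein, and *Hmox2-ps1* is a pseudogene, yet each was read in at least 96.2% of the DMSO cells. *Bcl2* RPM also ran against the number of mapped reads, with a rho of −0.30 in DMSO and −0.51 in GNF4877. Whether the *Bcl2* reads come from *Bcl2* transcripts was not tested.

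Reads of *Bax* and *Bcl2l1* are uncertain for another reason, since a listed gene follows each of them closely, and how alike the sequences are was not tested. *LOC681314* followed *Bax* at a rho of 0.90 in DMSO and 0.89 in GNF4877, and *LOC293190*, a *Bcl2l1* pseudogene in RefSeq, followed *Bcl2l1* at 0.91 and 0.84. Their means were 4.93 and 3.14 RPM, and 6.81 and 4.98 RPM, in the 2 treatments. Adding *LOC681314* to *Bax* and *LOC293190* to *Bcl2l1* left the members past 2-fold as they were in all 3 comparisons.

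**Figure D4:**
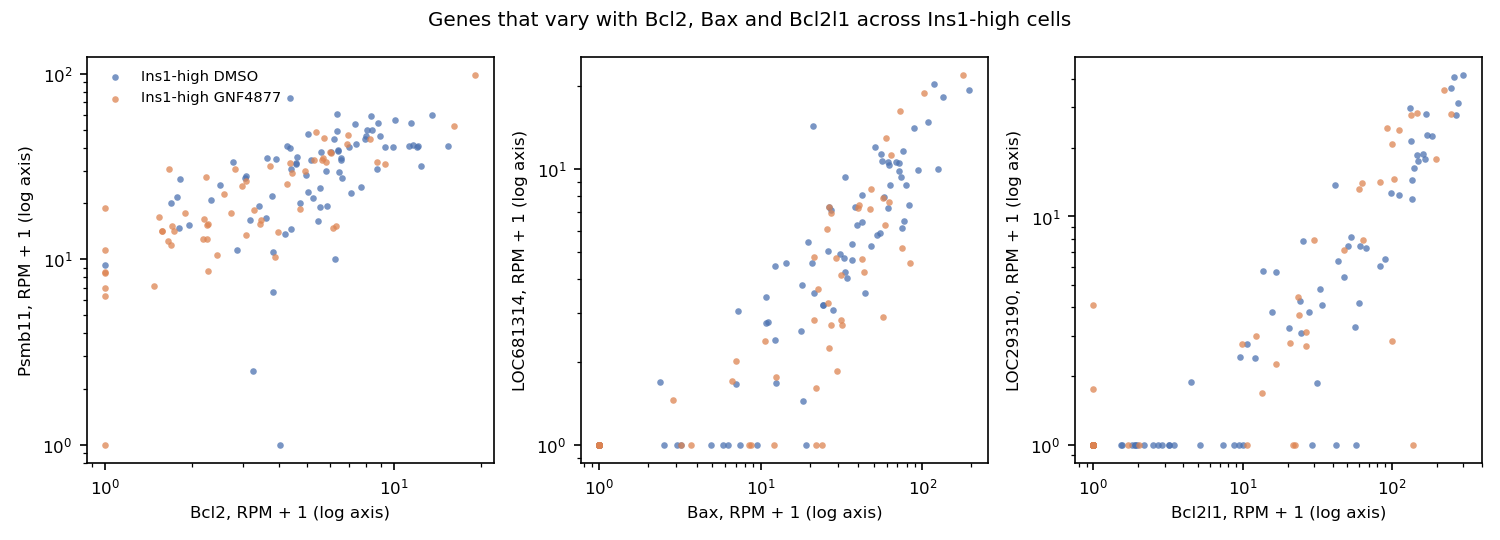
RPM + 1 on log axes for *Bcl2* and *Psmb11*, *Bax* and *LOC681314*, and *Bcl2l1* and *LOC293190*, with 1 point per Ins1-high cell (78 DMSO, 59 GNF4877). The genes of each panel vary together, with rho of 0.66, 0.90 and 0.91 in DMSO.

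*Mcl1*, *Bak1* and *Bcl2l1* were the members past 2-fold in the *Ccnb1* cells as reported, with the exceptions given above for *Bak1* and *Bcl2l1*, and their promoters were searched for 5 short motifs on both strands. RefSeq windows of 300 bases around the annotated start (GRCr8) matched 8 of the 10 members with 11 windows, of which *Bcl2l1* had 4. The motifs were the CCAAT box (CCAAT, in 37.5% of 33469 windows), the GC box (GGGCGG, 33.1%), the cell cycle homology region (TTTGAA, 18.3%), the cAMP response element (TGACGTCA, 1.83%) and the NFAT core (GGAAAA, 24.7%). The *Mcl1* window held 1 GC box, and the *Bak1* window held 1 GC box and 1 cell cycle homology region. Of the 4 *Bcl2l1* windows, 2 held a CCAAT box, 2 a cell cycle homology region, 1 a GC box and 1 an NFAT core. No motif was shared by every window of these genes. The windows with 1 start each are shown, *Mcl1* at chr2:185907918-185908217 (+ strand) and *Bak1* at chr20:5110925-5111224 (− strand), with matches in capitals.
Mcl1: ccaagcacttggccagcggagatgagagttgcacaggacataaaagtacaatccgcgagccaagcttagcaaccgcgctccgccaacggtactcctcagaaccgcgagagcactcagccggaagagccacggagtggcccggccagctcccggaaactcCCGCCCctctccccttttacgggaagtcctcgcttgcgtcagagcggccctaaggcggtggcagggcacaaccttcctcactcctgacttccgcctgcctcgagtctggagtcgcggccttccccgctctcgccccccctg
Bak1: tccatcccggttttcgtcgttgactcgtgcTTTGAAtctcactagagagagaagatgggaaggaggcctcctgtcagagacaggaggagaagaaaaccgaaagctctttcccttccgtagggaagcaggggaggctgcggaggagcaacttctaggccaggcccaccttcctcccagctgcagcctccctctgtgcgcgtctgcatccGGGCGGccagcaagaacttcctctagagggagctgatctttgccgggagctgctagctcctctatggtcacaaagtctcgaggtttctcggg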

How the data were processed

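The authors deposited RPM for each transcript of each cell, made with CASAVA 1.8.2, BWA 0.5.9 and SAMtools 0.1.19 and not divided by length. A mouse transcriptome is named in the methods, but the transcripts listed are those of rat. Values of 0.01 (69.7% of all) stand for no read and became 0, and read numbers came from the spacing of a cell's low values (for 100% of those worth 20 reads or fewer, the result was a whole number to within 0.1). The members and lists were chosen with earlier results of these data known. All members were named, with up to 3 genes per direction of each other list and the 5 genes most like the member read in most cells. The authors kept ports in which a microscope showed 1 cell, and no further doublets were sought here. Leaving out the highest cell of either group was added after seeing the data. Drawing 100000 listed reads per cell left out 2 of the DMSO and 1 of the GNF4877 cells called Ins1-high. In the 1 random draw *Bcl2* received 95 reads against 73.8 expected, so the draw was kept and exact expectations over all draws were added after it was seen. The ratio step was tested on simulated cells that differed only by counting error around the DMSO mean of each gene. That test cannot show how the ratios behave where few cells carry a mean, as for several members. Computation used scipy 1.17.1, numpy 2.4.6, matplotlib 3.10.9, pandas 2.3.3 and Python 3.11.15.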

Additional observations from a re-analysis of the deposited data

How the results depend on the processing

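No paired analysis was possible because the labels name no animal or culture that would link a DMSO cell to a GNF4877 cell. Of 88 recomputed counts of members past 2-fold, 70 stayed within 1.5 times the reported count, and 273 of 301 log2 ratios moved by less than 1.5-fold. Between treated and vehicle cells, 0 members were higher and 0 lower with a pseudocount of 10 RPM. There, 0 were higher with the mean of log2 values per cell, which put *Bcl2l1* at −1.24 in place of *Bbc3* (−0.46) while the median of all genes moved from −0.09 to −0.49, and 0 without the cell that moves a member most. With the filter applied again to the latter, which was chosen after seeing the data, 0 were lower too. In the same comparison 0 were lower with *Ins1* of 10000 RPM or more, where *Bbc3* stood at −1.39 and under the filter, and without cells whose listed transcripts hold under 20%, chosen after seeing the data. Between *Ccnb1* and other treated cells, 1 was higher (*Bad*) with the mean of log2 values, and 1 was lower (*Mcl1*) with any *Ccnb1* read, where *Bcl2l1* turned to 0.51. The *Bak1* call ended there (−0.57), with a pseudocount of 10 RPM (−0.37) and with the mean of log2 values (−0.53), the last 2 of which left 2 lower. Between alpha and Ins1-high cells, 0 were higher and 0 lower with a pseudocount of 10 RPM, and 0 lower (*Bak1* at −0.61) with the mean of log2 values, where *Bcl2l1* (1.24) took the place of *Bid*. There, 2 were higher and 0 lower (*Bak1* at −0.94) with *Ins1* of 10000 RPM or more, 2 were higher without a filter, and 0 were higher without the cell that moves a member most, with the filter kept or applied again, where *Bid* turned to −0.16. Except for the filter on *Bbc3*, the cause of these changes was not tested. The random draw made 4 members lower in the *Ccnb1* cells, *Bcl2* included (−1.17), against 3 in expectation. Rescaling to listed reads, adding *LOC681314* to *Bax* and *LOC293190* to *Bcl2l1*, exact expectations and leaving out DMSO cell 46 were also chosen after seeing the data, and the counts under them equalled those reported, although *Bbc3* moved to −2.86 with the rescaling. Of 60 shares recomputed at lower depth or with a threshold of 10 RPM, 38 lay outside the interval of the reported share, under both kinds of change.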
